A study of Medicago truncatula and Hordeum vulgare with 90 samples.

Results

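In roots of the legume Medicago truncatula, 125 genes answered the loss of phosphate and the loss of nitrate in opposite directions. They were chosen from the A17 wild-type libraries by their level, in counts scaled to a common library size (CPM), relative to the fully fed regime, written L, the log2 ratio of 2 group means after adding 0.5 CPM to each. A gene was taken where L without phosphate and L without nitrate had opposite signs and were each at least 0.58 in size, which is about 1.5-fold. The rule would have kept the 200 strongest, but only 125 of the 22239 genes with a mean of at least 1 CPM in some A17 group passed, out of 50894 identifiers in the table. Of these, 40 were higher without phosphate and lower without nitrate (P-up genes), and 85 were lower without phosphate and higher without nitrate (P-down genes).

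Whole roots were sequenced from seedlings of the nsp1-1 mutant, the nsp2-2 mutant and the wild type A17, in whose background both mutants stand, after 15 days on plates. Each genotype was grown without phosphate (-P+N), without nitrate (+P-N), without both (-P-N) and with both (+P+N), with 3 libraries per genotype and regime, 36 in all. A second table held 12 libraries of A17 roots transformed with Agrobacterium rhizogenes and picked by a RUBY colour reporter, after 21 days at +P+N. By the paper's methods, +P+N meant watered sand here, with less phosphate than the +P+N plates of the seedlings. These hairy roots carried pLjUBI:3xFLAG-MtNSP1 (NSP1ox), pBdEF1a:3xMyc-MtNSP2 (NSP2ox), pBdEF1a:3xMyc-MtNSP2-miRR (miRR-NSP2ox) or an empty vector (EV), with 3 libraries each, and the NSP genes were driven by promoters used for constitutive expression. Total counts ran between 16194286 and 25030726 per seedling library and between 18251230 and 25919307 per hairy root library. No source states whether the libraries of a group came from separate plants or cultures, so a p-value measures the spread between these libraries, which may be technical.

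Plants sense phosphate shortage mainly through PHR transcription factors, which SPX proteins hold back while phosphate is plentiful, and they sense nitrate through NLP transcription factors. In rice the systems are joined, since nitrate perception leads to the loss of an SPX protein and so releases both PHR and NLP activity. NSP1 and NSP2 are GRAS-domain regulators needed for nodulation in Medicago, and the sequenced mutants lack one or the other. The identifiers of the table carry no gene names or descriptions here, so the genes are described by their values alone, and the levels of NSP1 and NSP2 themselves were not checked. In whole roots, fewer cells of a type and less RNA per cell cannot be told apart.

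In A17, 1588 genes had L of at least 0.58 in size in both single starvations, and 1463 of them moved the same way, 786 higher and 677 lower in both. The 125 opposite genes were 7.87% of the 1588. Both L values are taken against the same A17 +P+N libraries, so chance error in those libraries moves both L values of a gene the same way, and these counts only describe the rule. The P-up genes had a median L of 0.91 without phosphate and -1.20 without nitrate. The P-down genes had medians of -0.77 without phosphate and 1.00 without nitrate. Because these values chose the genes, they are given as a description with no test. The -P+N libraries lay wholly outside the range of the +P+N libraries for 116 of the 125 genes and the +P-N libraries for 120. The same libraries chose the genes, so the rule itself favoured such separation, and the share over all genes was not counted. Just inside the limit stood Medtr7g077210 and Medtr8g078790, each with a smaller L of 0.58 in size (0.581371 and 0.58094), and just outside stood Medtr6g471090 and Medtr5g090970 (0.579758 and 0.579492). The size of the set depended on these settings, with 81 genes at a pseudocount of 1 CPM and 20 at a limit of 1 on L, all of them among the 125. At a pseudocount of 0.25 CPM 165 genes passed, including all 125, while 132 passed with RLE size factors (115 of the 125 among them) and 143 with group medians in place of means (107 of the 125).

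**Figure D1:**
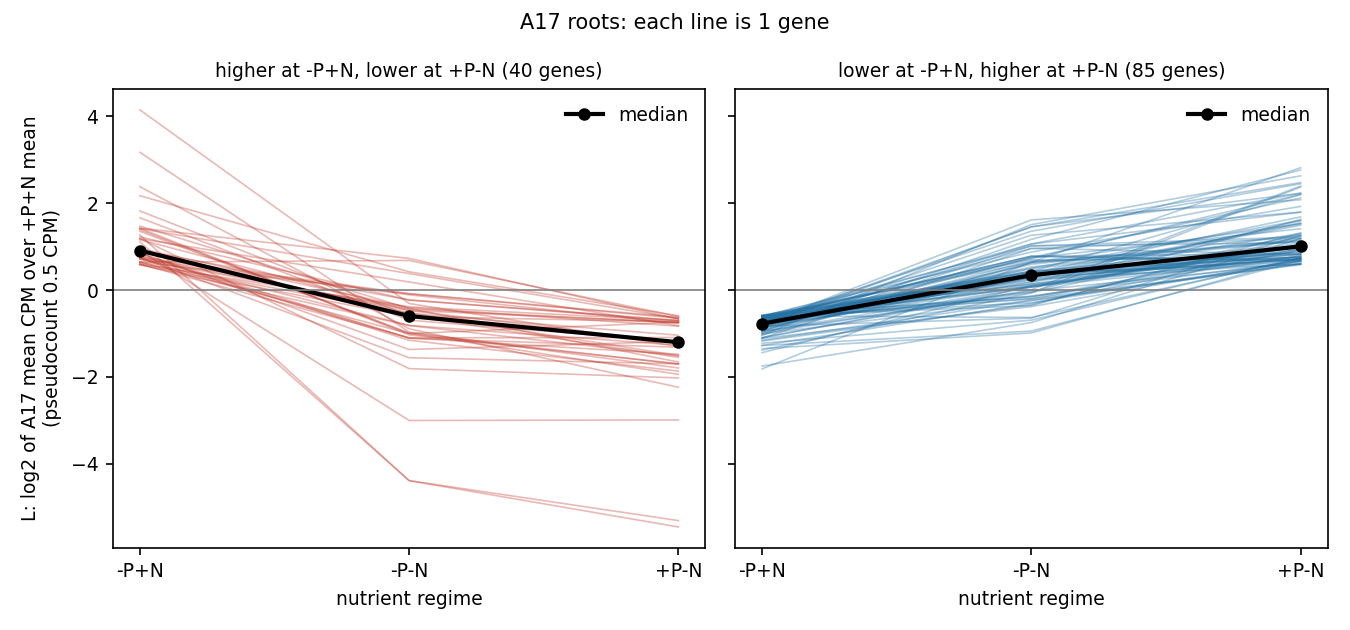
Level of each gene in A17 roots relative to +P+N (L, log2 of group mean CPM plus 0.5), with the 40 P-up genes on the left, the 85 P-down genes on the right, 1 line per gene and the median in black. The median of the P-up genes at -P-N was -0.60 and that of the P-down genes was 0.34, both on the +P-N side of 0.

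The strongest P-up gene by its smaller L was Medtr7g083410. In nsp1 its libraries held 1154, 1011 and 1120 CPM at -P+N, 38.6, 31.8 and 39.7 CPM at +P-N, and 131, 137 and 121 CPM at +P+N. In nsp2 they held 835, 691 and 877 CPM at -P+N, 49.2, 39.5 and 48.8 CPM at +P-N, and 175, 149 and 122 CPM at +P+N. In A17 they held 951, 973 and 1045 CPM at -P+N, 35.1, 37.3 and 47.4 CPM at +P-N, and 196, 163 and 212 CPM at +P+N. In each genotype every -P+N library exceeded every fully fed library, and every +P-N library lay below them all. The mutant libraries had no part in the choice of genes, and in them the rise at -P+N was 3.08 ± 0.08 on the log2 scale (SE) in nsp1 and 2.45 ± 0.13 in nsp2 (adjusted p = 1.22e-11 and 1.99e-06, from the quasi-likelihood test of edgeR, adjusted over all genes by Benjamini and Hochberg). The log2 change at +P-N was -1.88 ± 0.07 in nsp1 and -1.76 ± 0.12 in nsp2 (edgeR adjusted p = 3.24e-12 and 1.06e-07).

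Medtr6g013050, the next P-up gene, followed the same course at a different level in each mutant. In nsp1 it stood at 72.3, 60.3 and 71.5 CPM at -P+N, 1.42, 1.69 and 1.74 CPM at +P-N, and 7.08, 5.54 and 7.79 CPM at +P+N. In nsp2 it stood at 12.5, 9.75 and 13.3 CPM at -P+N, 0.346, 0.499 and 0.185 CPM at +P-N, and 2.02, 1.99 and 2.12 CPM at +P+N. In A17 it stood at 56.1, 58.0 and 58.4 CPM at -P+N, 1.51, 1.25 and 1.32 CPM at +P-N, and 5.88, 5.40 and 6.56 CPM at +P+N. All nsp2 libraries lay below the A17 libraries of their regime, yet the log2 changes from +P+N in nsp2 were 2.55 ± 0.17 at -P+N and -2.63 ± 0.34 at +P-N (edgeR adjusted p = 6.52e-06 and 3.13e-05). In nsp1 they were 3.32 ± 0.11 and -2.12 ± 0.18 (edgeR adjusted p = 1.80e-10 and 4.62e-08).

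Medtr8g031420 led the P-down genes. In nsp1 it reached 0.797, 0.972 and 1.33 CPM at -P+N, 18.6, 35.5 and 22.8 CPM at +P-N, and 3.04, 2.99 and 2.52 CPM at +P+N. In nsp2 it reached 0.603, 1.12 and 1.41 CPM at -P+N, 39.3, 49.6 and 31.02 CPM at +P-N, and 2.77, 3.56 and 4.76 CPM at +P+N. In A17 it reached 0.110, 0.310 and 0.780 CPM at -P+N, 26.2, 20.7 and 18.5 CPM at +P-N, and 2.61, 3.29 and 2.10 CPM at +P+N. The regimes did not overlap in any genotype. The log2 changes at -P+N were -1.48 ± 0.25 in nsp1 and -1.79 ± 0.31 in nsp2, and those at +P-N were 3.12 ± 0.22 in nsp1 and 3.38 ± 0.20 in nsp2 (edgeR adjusted p = 0.000247, 0.00163, 4.74e-09 and 3.46e-08).

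The next P-down gene, Medtr4g029170, had 0.698, 0.756 and 0.823 CPM in nsp1 at -P+N, 11.4, 20.9 and 12.2 CPM at +P-N, and 1.63, 1.47 and 1.20 CPM at +P+N. In nsp2 it had 0.302, 0.690 and 0.705 CPM at -P+N, 17.1, 21.1 and 10.3 CPM at +P-N, and 1.26, 2.04 and 2.35 CPM at +P+N. In A17 it had 0.939, 0.568 and 0.613 CPM at -P+N, 16.5, 18.7 and 12.1 CPM at +P-N, and 2.55, 2.70 and 2.68 CPM at +P+N. Its fall at -P+N was the smallest change of these genes in the mutants, -0.92 ± 0.30 in nsp1 and -1.69 ± 0.38 in nsp2 on the log2 scale (edgeR adjusted p = 0.0194 and 0.00597). The call at -P+N in nsp1 was lost with DESeq2 (adjusted p = 0.063) and without +P+N replicate 1 or 2 or -P+N replicate 1 of nsp1 (edgeR adjusted p between 0.05 and 0.0718). At +P-N the log2 changes were 3.32 ± 0.25 in nsp1 and 3.04 ± 0.28 in nsp2 (edgeR adjusted p = 9.26e-09 and 1.90e-06).

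**Figure D2:**
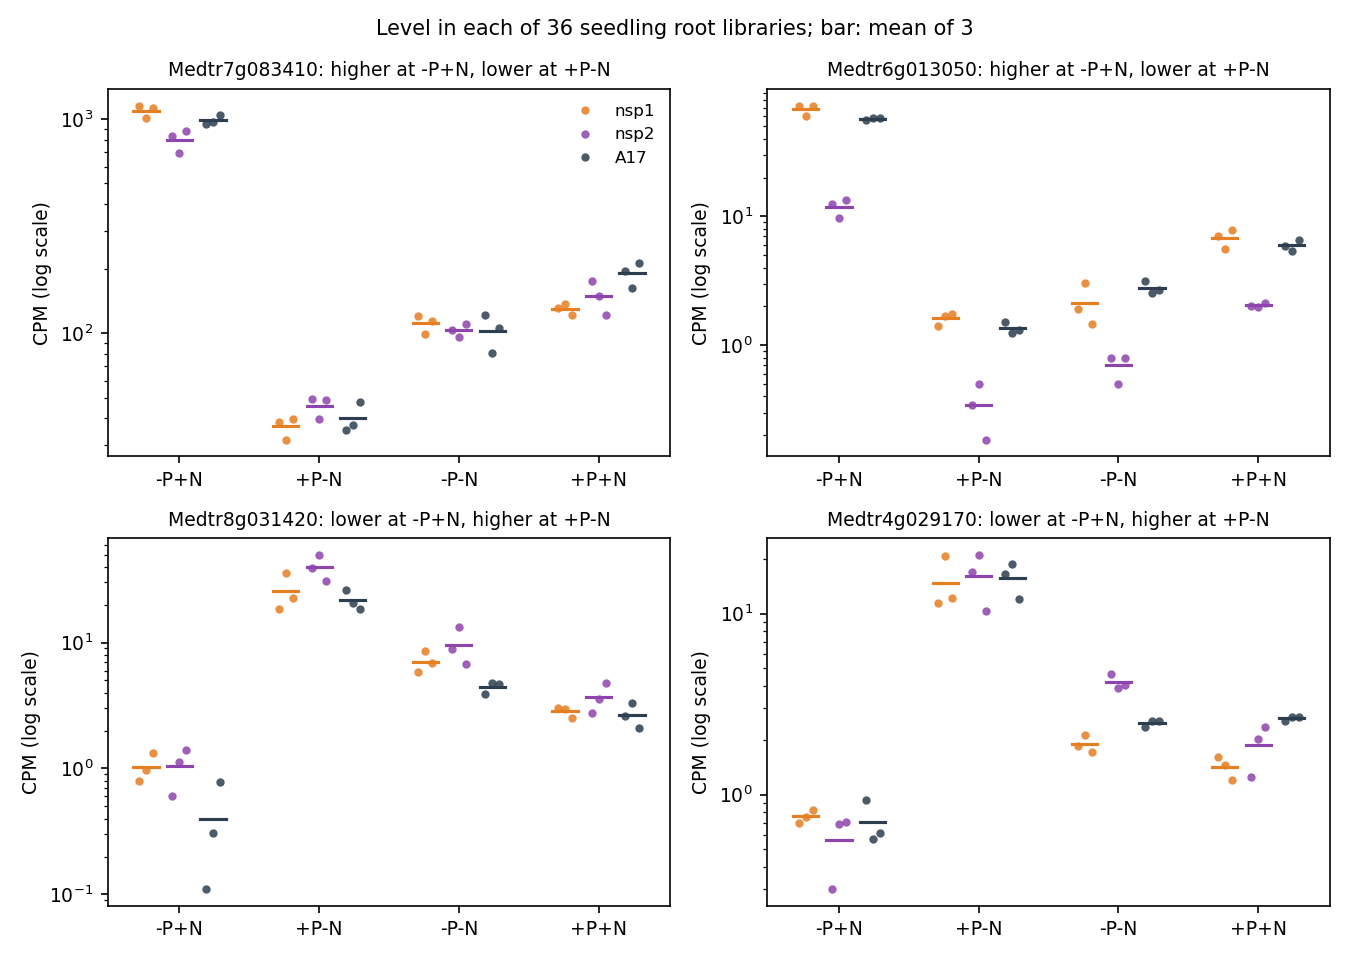
CPM on a log scale in each of the 36 seedling root libraries for the first 2 P-up genes (top) and the first 2 P-down genes (bottom), by regime, with nsp1, nsp2 and A17 side by side, points for libraries and bars for the mean of 3. Medtr7g083410 stood between 691 and 1154 CPM in all 9 libraries at -P+N and between 31.8 and 49.2 CPM in all 9 at +P-N.

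The mutants asked whether the opposite pattern held in libraries that had not chosen the genes. The signs of both L values were those of A17 for 97 of the 125 genes in nsp1 and 92 in nsp2. The whole rule was passed, in the A17 direction, by 55 genes in nsp1 (44.0%) and 47 in nsp2 (37.6%), and 39 genes passed it in both mutants. Over all genes with at least 1 CPM in some group of the mutant, 1.41% passed the rule in nsp1 and 0.872% in nsp2. The 55 genes were 17.5% of the 315 that passed in nsp1, and the 47 were 24.2% of the 194 that passed in nsp2. Among the P-up genes, 17 of 40 passed in nsp1 and 20 in nsp2, and among the P-down genes 38 of 85 passed in nsp1 and 27 in nsp2.

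By the test, phosphate starvation moved 70 of the 125 genes in the A17 direction in nsp1 and 8 against it. In nsp2 it moved 67 with the A17 direction and 9 against. Of the 40 P-up genes, 24 rose in nsp1 at -P+N, where 26.5% of the 24630 genes tested rose, and 28 rose in nsp2, where 17.4% of all genes did. Of the 85 P-down genes, 46 fell in nsp1 and 39 in nsp2, beside 26.4% and 18.1% of all genes. The median log2 change of the P-up genes was 0.77 in nsp1 and 0.77 in nsp2, and that of the P-down genes was -0.72 in nsp1 and -0.54 in nsp2. The median over all genes tested was 0.02 in nsp1 and 0.02 in nsp2.

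More of the 125 genes passed at +P-N than at -P+N. The L values that chose them in A17 were also larger in median size at +P-N (-1.20 for P-up and 1.00 for P-down genes). At -P+N these medians were 0.91 and -0.77, nearer the limit of 0.58, so the 2 counts are not on an equal footing. In nsp1, 109 of the 125 genes passed in the A17 nitrate direction and 1 against it, and in nsp2, 105 passed with it and 1 against. At +P-N, 36 of 40 P-up genes fell in nsp1 and 33 in nsp2, where 28.8% and 28.9% of all genes fell. Of the 85 P-down genes, 73 rose in nsp1 and 72 in nsp2, beside 28.7% and 28.1% of all genes. Over all genes too, fewer passed at -P+N than at +P-N, above all in nsp2 (17.4% higher and 18.1% lower at -P+N). The median log2 change of the P-up genes at +P-N was -1.81 in nsp1 and -1.53 in nsp2, and that of the P-down genes was 0.99 in nsp1 and 1.19 in nsp2. The normalization factors by which library sizes were scaled also differed with nitrate, being 1.03 to 1.07 in the 18 libraries without nitrate and 0.922 to 0.976 in the 18 with nitrate. With RLE size factors in place of these, 109 genes in nsp1 and 105 in nsp2 again passed in the nitrate direction. RLE factors also assume that most genes do not change, so these counts could not test whether the scaling shaped the calls.

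Both tests passed in the opposite directions of the rule for 66 genes in nsp1, 22 P-up and 44 P-down, while no gene passed both in the reverse directions. In nsp2 they passed for 54 genes, 24 P-up and 30 P-down, again with 0 reversed. Over all 24630 genes, 3.43% passed in the P-up pattern and 4.33% in the P-down pattern in nsp1, and 1.87% and 2.7% in nsp2. In both mutants at once, 51 of the 125 genes passed all 4 tests, 21 P-up and 30 P-down, where 1.19% of all genes passed them in the P-up pattern and 1.99% in the P-down pattern. These tests share the +P+N libraries within a genotype.

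**Figure D3:**
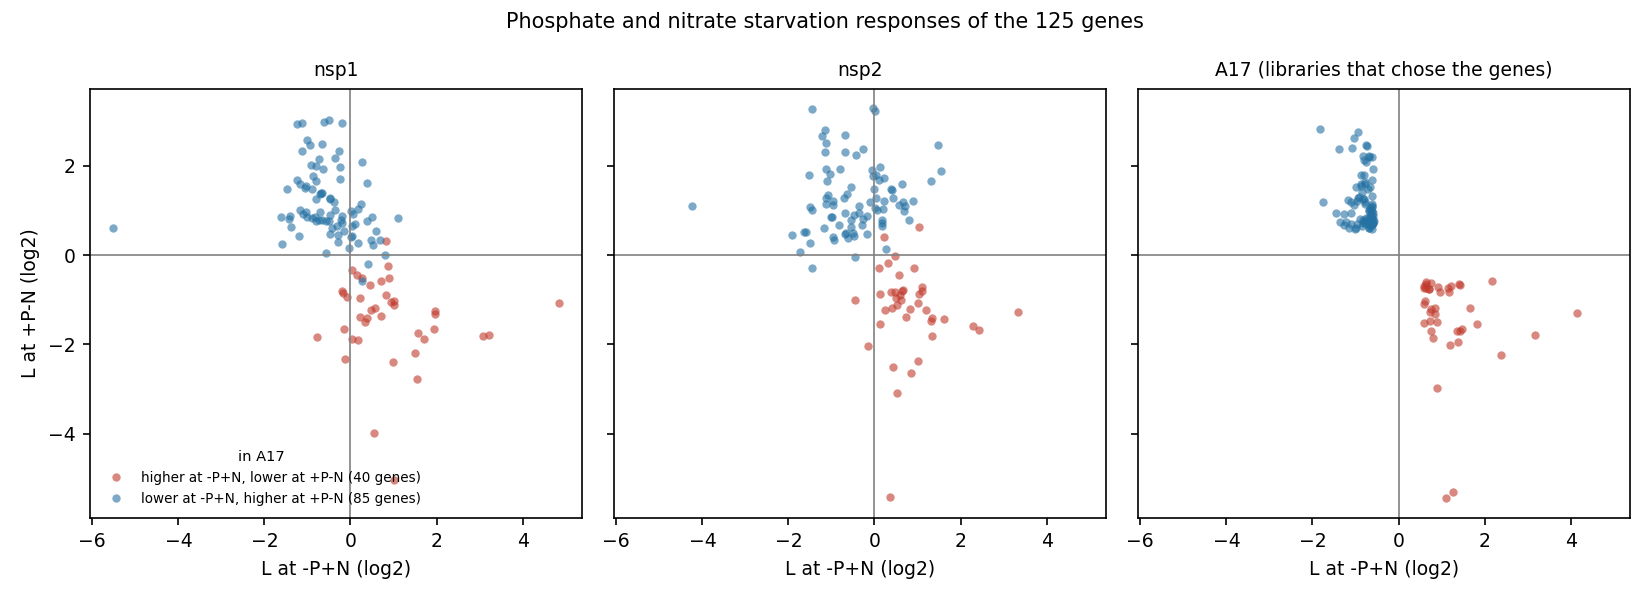
L at -P+N (x axis, log2) against L at +P-N (y axis, log2) for the 125 genes in nsp1, nsp2 and A17, with P-up genes in red and P-down genes in blue. Both signs were kept by 97 genes in nsp1 and 92 in nsp2, and the A17 panel shows the values that chose the genes.

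Medtr2g013655, the third P-down gene by the rule, lay farthest to the left in both mutants. At -P+N it held 3.24, 5.78 and 3.61 CPM in nsp1, 7.69, 10.1 and 5.54 CPM in nsp2, and 26.9, 34.1 and 38.3 CPM in A17. At +P+N it held 213, 226 and 210 CPM in nsp1, 152, 137 and 176 CPM in nsp2, and 109, 129 and 101 CPM in A17. At -P+N both mutants were below every A17 library, and at +P+N they were above. The log2 change at -P+N was -5.68 ± 0.13 in nsp1 and -4.29 ± 0.17 in nsp2 (edgeR adjusted p = 7.90e-12 and 2.90e-07), while L in A17 was -1.75. The difference of these responses from A17 was not tested, because A17 values chose the gene.

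The libraries without both nutrients asked which response held when the signals met. In A17, 48 of the 125 genes kept an L of at least 0.58 in size with the sign seen without nitrate, 8 kept one with the sign seen without phosphate, and 69 lay within 0.58 of the fully fed level. The P-up genes gave 21 on the nitrate side, 2 on the phosphate side and 17 on neither, and the P-down genes gave 27, 6 and 52. On a scale that runs between 0 at the +P-N level and 1 at the -P+N level, the median position at -P-N was 0.24 for the P-up genes and 0.42 for the P-down genes. Closer to +P-N than to -P+N lay 89 genes, 36 of 40 P-up and 53 of 85 P-down. In both groups the median L was larger in size without nitrate than without phosphate, so a plain sum of the 2 would also lean to the nitrate side. L at -P-N minus that sum had a median of 0.04 for the P-down genes (quartiles -0.38 and 0.30). For the P-up genes it was -0.44 (quartiles -0.86 and -0.16). The counts by side therefore do not show that 1 nutrient overrode the other. The A17 -P-N libraries entered the choice only through the minimum level, but the scale rests on the libraries that chose the genes, so these values are a description.

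In the mutants the level at -P-N could be tested against +P+N. In nsp1, 87 of the 125 genes passed in the nitrate direction and 7 in the phosphate direction, and in nsp2, 69 passed in the nitrate direction and 13 in the phosphate direction. Of the P-up genes, 29 of 40 fell at -P-N in nsp1 and 24 in nsp2, where 30.1% and 29.1% of all genes fell. Only 1 of them rose in nsp1 and 3 in nsp2, where 30.7% and 29.7% of all genes rose. Of the 85 P-down genes, 58 rose in nsp1 and 45 in nsp2, and 6 fell in nsp1 and 10 in nsp2. The median log2 change at -P-N was -1.03 in nsp1 and -0.90 in nsp2 for the P-up genes, and 0.77 in nsp1 and 0.66 in nsp2 for the P-down genes. The tallies of 87 and 69 include genes that had not kept opposite signs in the mutant and so could sit on the nitrate side without a conflict between the nutrients. Among the 97 genes that kept both signs of L in nsp1, 65 passed in the nitrate direction and 6 in the phosphate direction, and among the 92 in nsp2, 46 passed in the nitrate direction and 10 in the phosphate direction. In both mutants the median change was larger in size at +P-N than at -P+N. The level at -P-N was not compared with the sum of the single responses in the mutants.

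The genes were then divided by the side they took at -P-N in A17. Of the 48 genes on the nitrate side in A17, 45 passed on that side in nsp1 and 41 in nsp2, 40 in both, and 0 passed on the phosphate side in either. Of the 8 on the phosphate side in A17, 6 passed on that side in nsp1 and 6 in nsp2, 5 in both, and 0 passed on the nitrate side. The 69 genes on neither side in A17 gave 42 on the nitrate side and 1 on the phosphate side in nsp1, and 28 and 7 in nsp2. Of all genes tested, 24.7% were higher and 24.3% lower at -P-N in both mutants.

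Phosphate was also compared where nitrate was missing. Between -P-N and +P-N, which differ in phosphate alone, 57 of the 125 genes passed in the A17 phosphate direction and 10 against it in nsp1, and 80 passed with it and 3 against in nsp2. Of the P-up genes, 10 of 40 were higher in nsp1 where phosphate was missing too, and 22 in nsp2, beside 13.5% and 14.6% of all genes. Of the 85 P-down genes, 47 were lower in nsp1 and 58 in nsp2, beside 14.9% and 14.3% of all genes. Between -P-N and -P+N, which differ in nitrate alone, 104 genes passed in the nitrate direction in nsp1 and 87 in nsp2, with 2 against it in each. Here 37 of 40 P-up genes were lower at -P-N in nsp1 and 35 in nsp2, beside 23.8% and 21.4% of all genes, and 67 of 85 P-down genes were higher in nsp1 and 52 in nsp2, beside 22.6% and 20.6%.

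**Figure D4:**
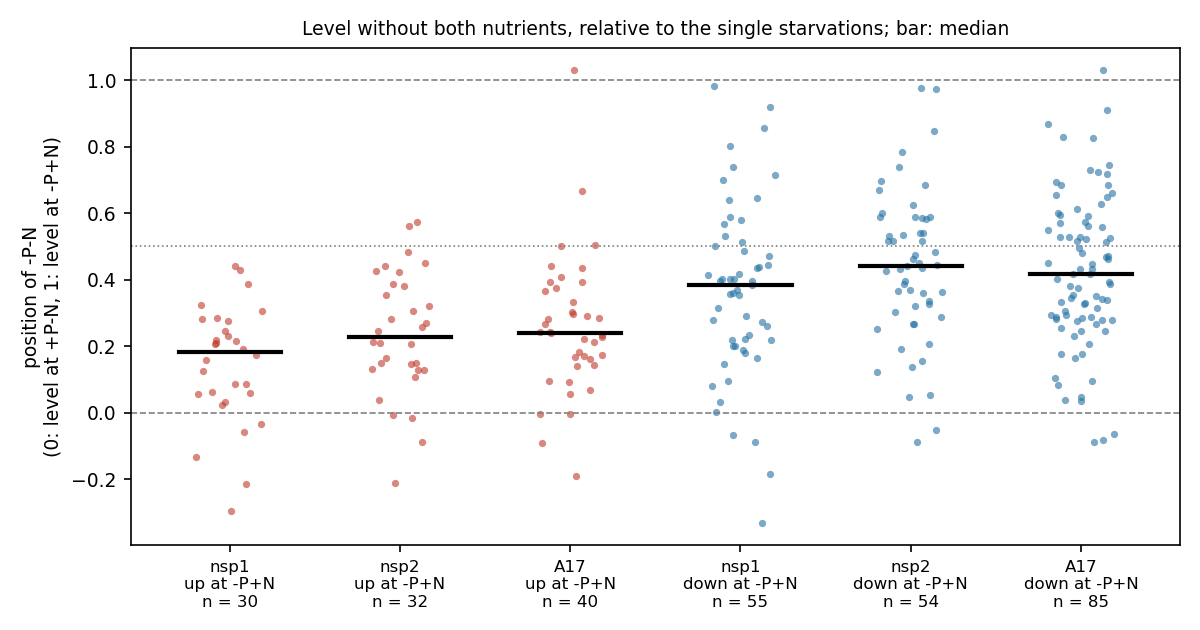
Position of the -P-N level between the +P-N level (0) and the -P+N level (1), by genotype, for P-up genes (red) and P-down genes (blue), 1 point per gene and bars for the median. In the mutants only genes whose single starvation levels differed by at least 1.16 (log2) in the A17 order have a position, 85 in nsp1 and 86 in nsp2, and the medians were 0.18, 0.23 and 0.24 for P-up genes in nsp1, nsp2 and A17, and 0.39, 0.44 and 0.42 for P-down genes.

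At the nitrate end of the scale stood Medtr4g078310 among the P-up genes and Medtr5g007450 among the P-down genes, the lowest positions in A17 among genes with at least 5 CPM in some group. Medtr4g078310 held 4.22, 5.42 and 6.21 CPM in nsp1 and 5.40, 7.39 and 6.82 CPM in nsp2 at -P-N, against 13.5, 17.9 and 15.4 CPM in nsp1 and 17.03, 16.6 and 13.9 CPM in nsp2 at +P+N. Its level at -P-N was below that without nitrate alone, where nsp1 had 6.90, 7.04 and 8.10 CPM and nsp2 had 8.56, 7.98 and 8.26 CPM. The log2 change at -P-N against +P+N was -1.57 ± 0.15 in nsp1 and -1.30 ± 0.14 in nsp2 (edgeR adjusted p = 5.62e-07 and 8.34e-06). Medtr5g007450 held 71.4, 82.7 and 73.5 CPM in nsp1 and 85.8, 103 and 99.98 CPM in nsp2 at -P-N, against 42.8, 41.7 and 38.3 CPM in nsp1 and 64.1, 58.1 and 57.6 CPM in nsp2 at +P+N. The groups did not overlap in either mutant, with log2 changes of 0.87 ± 0.07 in nsp1 and 0.66 ± 0.08 in nsp2 (edgeR adjusted p = 1.07e-07 and 2.86e-05).

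At the phosphate end, under the same minimum of 5 CPM, stood Medtr2g021580 and Medtr8g014700, although P-down genes with lower levels reached higher positions, up to 1.03 for Medtr7g117350. Medtr2g021580, a P-up gene, held 14.7, 10.3 and 11.02 CPM in nsp1 and 12.2, 12.5 and 12.6 CPM in nsp2 at -P-N, against 7.18, 8.80 and 6.70 CPM in nsp1 and 5.74, 7.78 and 8.09 CPM in nsp2 at +P+N. It was higher at -P-N in both mutants, by 0.64 ± 0.15 and 0.76 ± 0.14 on the log2 scale (edgeR adjusted p = 0.00207 and 0.000491). Without phosphate alone it gave 0.91 ± 0.12 in nsp1 but 0.33 ± 0.26 in nsp2 (edgeR adjusted p = 2.34e-05 and 0.349), and in A17 replicate 3 at -P+N, at 6.90 CPM, fell inside the range of the +P+N libraries. The A17 libraries at +P-N overlapped those at +P+N as well. In nsp1 it had 120, 206 and 104 counts at +P-N and 137, 162 and 117 at +P+N. In nsp2 it had 140, 105 and 145 counts against 114, 164 and 141, so a nitrate response to oppose was not clear. Medtr8g014700, a P-down gene, held 2.85, 3.18 and 3.39 CPM in nsp1 and 3.29, 2.02 and 2.59 CPM in nsp2 at -P-N, against 6.66, 6.79 and 5.84 CPM in nsp1 and 7.66, 7.16 and 6.02 CPM in nsp2 at +P+N. Its log2 change at -P-N was -1.05 ± 0.15 in nsp1 and -1.43 ± 0.19 in nsp2 (edgeR adjusted p = 3.56e-05 and 5.89e-05), whereas at +P-N it did not pass in either mutant, with 0.22 ± 0.15 in nsp1 and 0.01 ± 0.14 in nsp2 (edgeR adjusted p = 0.219 and 0.968).

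At -P-N few of the genes passed the test between a mutant and A17. In nsp1 against A17, 11 of the 125 genes were higher and 3 lower, where 1.69% of all genes were higher and 0.702% lower. All 11 were P-down genes and all 3 were P-up genes. In nsp2 against A17, 12 were higher and 3 lower, where 2.59% and 2.98% of all genes were, and the 12 comprised 8 P-down and 4 P-up genes. Single libraries carried part of these counts, since 5, 7 and 8 genes passed in nsp1 without nsp1 replicate 3, A17 replicate 1 and A17 replicate 2, and 9 passed in nsp2 without A17 replicate 1. The genes named here for their fold changes were chosen after their values were seen. In nsp1, Medtr3g116430 had 35.1, 48.2 and 38.3 CPM, against 86.4, 87.1 and 67.2 CPM in A17 (log2 change -0.99 ± 0.12, edgeR adjusted p = 0.000811), and Medtr2g076970 was higher by 0.77 ± 0.11 (edgeR adjusted p = 0.00303). Medtr3g116430 was lower in nsp1 in the other regimes too, with 1568, 1567 and 1668 counts at +P+N against 1879, 2385 and 2225 in A17. At +P-N and at -P+N every nsp1 count of this gene likewise lay below every A17 count. In nsp2, Medtr5g084540 had 9.29, 17.1 and 24.9 CPM, against 2.45, 1.63 and 0.478 CPM in A17, a log2 change of 3.46 ± 0.41 (edgeR adjusted p = 0.000439). This difference was not confined to -P-N. The gene had 2091, 1496 and 1579 counts in nsp2 at +P+N, against 688, 905 and 598 in A17. At +P-N it had 188, 260 and 166 counts against 18, 5 and 7, while the 2 genotypes overlapped at -P+N. Medtr6g013050 was lower in nsp2, with 0.798, 0.504 and 0.797 CPM, against 3.17, 2.53 and 2.70 CPM in A17 (log2 change -2.00 ± 0.25, edgeR adjusted p = 0.000615).

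The responses themselves could be compared between the mutants, on libraries that had no part in the choice. The phosphate response differed between nsp2 and nsp1 for 4 of the 125 genes, 1 with a higher and 3 with a lower value in nsp2, where 0.577% and 0.179% of all genes did so. The nitrate response differed for 16 genes, 12 higher and 4 lower in nsp2, beside 2.56% and 0.609% of all genes. The count of 4 rested on single libraries, being 0 without nsp1 +P+N replicate 1, 1 or 2 without any one of 7 other libraries, and 8 without nsp2 +P+N replicate 3. For the other 121 and 109 genes a difference was not detected with 3 libraries per group, which does not show that the mutants responded alike. Medtr8g432450, a P-down gene chosen here for its difference, held 2.87, 4.39 and 4.29 CPM in nsp2 at +P-N and 0.302, 0.807 and 0.918 CPM in nsp2 at +P+N. In nsp1 it held 1.27, 1.81 and 1.92 CPM at +P-N and 1.68, 2.01 and 2.29 CPM at +P+N. The regimes were apart in nsp2 and overlapped in nsp1, and the difference of the nitrate responses was 2.76 ± 0.42 on the log2 scale (edgeR adjusted p = 0.000627).

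In hairy roots, all grown with both nutrients, 115 of the 125 genes had enough counts to be tested, 31 P-up and 84 P-down. Against EV, NSP1ox had 21 higher and 19 lower, where 6.59% and 5.16% of the 24004 genes tested were. NSP2ox had 43 higher and 22 lower, beside 14.2% and 11.5% of all genes, and miRR-NSP2ox had 39 higher and 26 lower, beside 15.9% and 14.7%. Without EV replicate 3, 24 genes passed in NSP1ox in place of 40. The P-up genes gave 5 higher and 6 lower in NSP1ox, 9 and 6 in NSP2ox, and 11 and 7 in miRR-NSP2ox. The P-down genes gave 16 higher and 13 lower in NSP1ox, 34 and 16 in NSP2ox, and 28 and 19 in miRR-NSP2ox. Both groups thus held changes in both directions in each line, and the median log2 change of all 115 genes was 0.08 in NSP1ox, 0.19 in NSP2ox and 0.20 in miRR-NSP2ox. All 3 comparisons share the EV libraries.

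Medtr1g080510, a P-down gene chosen here for its fold change, held 4.05, 6.49 and 5.74 CPM in NSP1ox, 7.02, 5.44 and 9.58 CPM in NSP2ox and 18.5, 23.0 and 19.0 CPM in miRR-NSP2ox, against 1.82, 1.31 and 1.43 CPM in EV. Every library of every line stood above every EV library, by 1.84 ± 0.24, 2.29 ± 0.25 and 3.73 ± 0.17 on the log2 scale (edgeR adjusted p = 0.00096, 3.34e-05 and 1.18e-08). Medtr2g438330, another P-down gene, ran the other way, with 0.342, 0.295 and 0.654 CPM in NSP1ox, 0.430, 0.415 and 0.737 CPM in NSP2ox and 0.407, 0.695 and 0.893 CPM in miRR-NSP2ox, against 1.76, 2.67 and 3.15 CPM in EV. Its log2 changes were -2.53 ± 0.39, -2.21 ± 0.36 and -1.92 ± 0.36 (edgeR adjusted p = 0.00205, 0.000739 and 0.00179). Of the first genes by the rule, Medtr7g083410 stood between 37.6 and 87.7 CPM in the 12 hairy root libraries. It was higher in miRR-NSP2ox than in EV, at 87.7, 77.8 and 82.5 CPM against 40.5, 63.0 and 55.5 CPM. The log2 change was 0.64 ± 0.13 (edgeR adjusted p = 0.00249). The gene did not pass in NSP1ox or NSP2ox (edgeR adjusted p = 0.189 and 0.128). Medtr5g084540, the P-up gene raised in nsp2 at -P-N, had 0 counts in all 12, where a count of 0 allows up to 3.

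**Figure D5:**
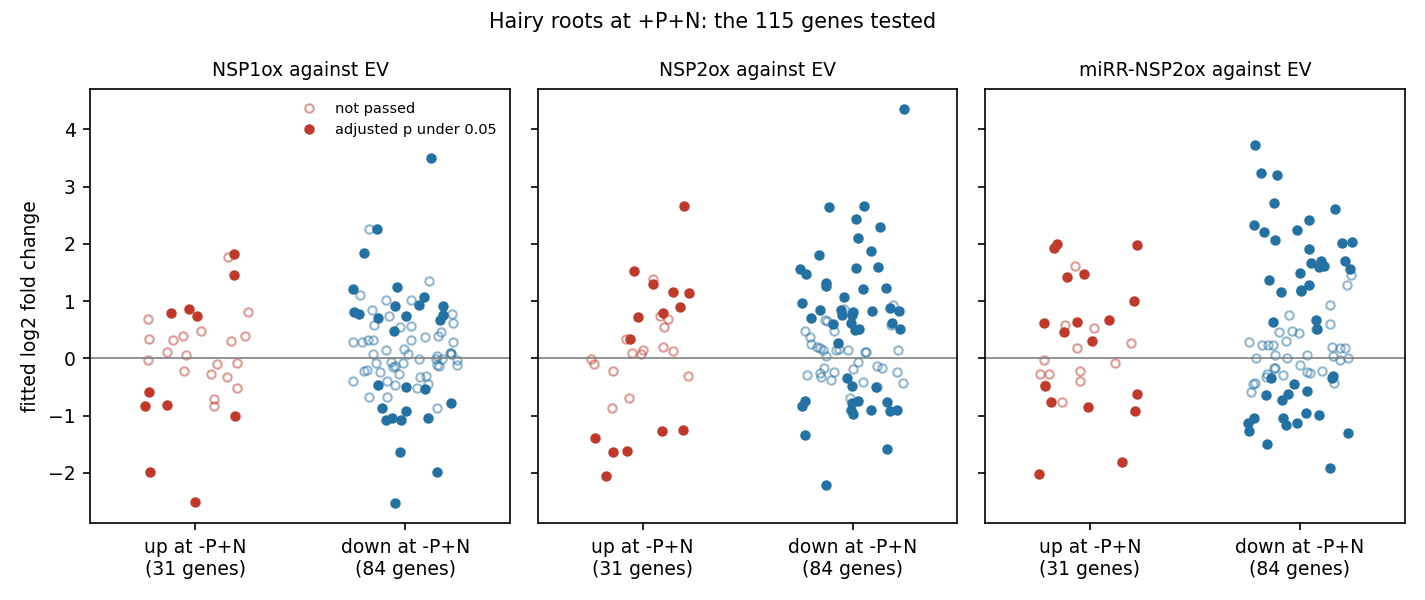
Fitted log2 fold change of the 115 genes tested in NSP1ox, NSP2ox and miRR-NSP2ox against EV hairy roots at +P+N, with P-up genes in red and P-down genes in blue, filled where the adjusted p was under 0.05. Filled points lie on both sides of 0 in every panel, 21 above and 19 below in NSP1ox, 43 and 22 in NSP2ox, and 39 and 26 in miRR-NSP2ox.

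Some of the genes lay close together in the table, whose identifiers number the genes along each chromosome. Within 5 rows of another gene of the set stood 30 of the 125, forming 18 pairs, and 16 of the pairs shared a direction. The share with such neighbours in other gene sets of this size was not counted, so these counts do not show clustering. With 85 of the 125 genes P-down, many pairs would share a direction in any case. The leading P-down genes had such neighbours, Medtr8g031430 beside Medtr8g031420 and Medtr4g029180 beside Medtr4g029170, with Pearson correlations of log2 levels over the 36 libraries of 0.95 and 0.98. In the other 2 pairs, the P-down gene Medtr6g488030 stood near the P-up genes Medtr6g488050 and Medtr6g488090, with correlations of -0.68 and -0.80. These correlations run over the mutant libraries and over the A17 libraries that chose the genes, and all of the libraries share the same regimes. Reads that match neighbouring copies of a gene could be split between them in ways the sources do not describe, so the levels within such pairs are uncertain.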

How the data were processed

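The authors deposited raw counts, whole numbers of reads per gene, for each Medicago library. The authors' notes name STAR, featureCounts and FastQC, without versions, and the assembly Mt4.0v1. Strandedness and the handling of reads that match several genes are not given in the sources used here. The members and comparisons were chosen with earlier results of these data known.

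CPM were computed from the counts with TMM factors (edgeR 4.0.16, R 4.3.3). A gene was tested if 3 or more libraries held at least 0.492 CPM (seedlings) or 0.494 CPM (hairy roots), which corresponds to 10 counts at the median depth. Each pair of groups was fitted alone with edgeR's quasi-likelihood test, and the difference of responses between mutants was tested as an interaction over 12 libraries. A gene passed at a Benjamini-Hochberg adjusted p under 0.05 over all genes of the table. A single exact permutation test of 3 against 3 libraries cannot go below 0.1, so no such test was used. On simulated counts for nsp1 -P+N against +P+N (24630 genes), 81% of genes changed 2-fold and 97% of those changed 4-fold were recovered, with 0 of wrong sign. For the phosphate interaction the shares were 68% and 86%, and for miRR-NSP2ox against EV (24004 genes) 81% and 93%. Of the genes called in these 3 simulations, 10.1%, 3.14% and 10.8% had not been changed. Only 100 genes were changed at each fold, whereas 26.5% of genes rose and 26.4% fell in the measured nsp1 comparison. The recovery in data with so many changes was not tested.

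Replicate pairs within a group differed by more than sampling noise (chi-square per gene of 2.00 or more). Same-numbered libraries did not deviate together (correlations of -0.14 to 0.23, above 0.1 for every number in 0 of 20 comparisons), so replicate numbers were not used to pair samples. Genes named first are those with the largest smaller L in each direction and the extremes of position at -P-N. Since identifiers carry no names, only the first few of each are printed. The reference table at hand held 0 of the table's identifiers, so lists by function, tissue markers, promoter motifs and sequences were not used. A planned test of A17 -P-N against +P+N is not given, since its +P+N libraries chose the genes. Barley libraries and their count table were not used. Figures were drawn with matplotlib.

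Alternatives were a filter at 1 library or none, RLE factors, DESeq2 1.42.0, a replicate block, 1 fit over all groups, a 1.5-fold limit, each library left out, and for the rule other pseudocounts, a limit of 1, medians and each replicate left out. The alternatives for the rule in the mutants and for both single starvations together were added after seeing the data.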

Additional observations from a re-analysis of the deposited data

Results flagged for a closer look

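For 7 of the 125 genes named by the size of their difference, the response to a single starvation differed between nsp2 and nsp1 by the interaction test, and each was chosen after its values were seen. The phosphate response, nsp2 minus nsp1 on the log2 scale, was 1.39 for Medtr2g013655, -1.76 for Medtr5g054300 and -0.70 for Medtr5g005370 (edgeR adjusted p = 0.0236, 0.0157 and 0.0236). Medtr5g054300, a P-up gene, held 16.4, 15.7 and 18.3 CPM in nsp2 at -P+N and 40.5, 30.5 and 35.9 CPM in nsp1 at -P+N. At +P+N it held 1.06, 0.996 and 1.61 CPM in nsp2 and 0.734, 0.598 and 0.916 CPM in nsp1. All 3 phosphate differences lost their call without at least 2 of the 12 libraries taken singly, with adjusted p up to 0.088, 0.0551 and 0.0733.

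The nitrate response, nsp2 minus nsp1, was 2.76 for Medtr8g432450, 1.85 for Medtr1g080510, -2.41 for Medtr7g089780 and -0.69 for Medtr8g031430 (edgeR adjusted p = 0.000627, 0.0119, 0.023 and 0.00661). Medtr1g080510, a P-down gene, held 8.31, 13.9 and 11.4 CPM in nsp2 at +P-N and 3.13, 5.59 and 5.68 CPM in nsp1 at +P-N. At +P+N it held 1.01, 1.76 and 2.07 CPM in nsp2 and 2.25, 2.12 and 3.09 CPM in nsp1. Without nsp1 +P+N replicate 3 its adjusted p was 0.0577. Medtr7g089780 lost its call without any one of 5 libraries (edgeR adjusted p up to 0.0691), and Medtr8g031430 lost it in a fit over all groups (adjusted p = 0.0608), while Medtr8g432450 kept its call in all 19 alternatives. No cause of these differences was tested.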

How the results depend on the processing

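Counts of genes called in the nitrate or phosphate direction within nsp1 and within nsp2 stayed within 1.5 times under every alternative, and no result reversed. With no filter on low counts, 23 genes differed between nsp1 and A17 at -P-N, 23 between nsp2 and A17, 10 in the phosphate interaction and 26 in the nitrate interaction. A 1.5-fold limit left 9 for nsp2 against A17. DESeq2 gave 11 for the phosphate interaction, and 1 fit over all groups gave 10 for the nitrate interaction. A pseudocount of 1 CPM gave 81 genes that passed the rule, with 4 on the phosphate side and 41 on neither side at -P-N. A limit of 1 on L gave 20, with 0 on the phosphate side, 5 on the nitrate side and 15 on neither, and left 22 members that passed the rule in nsp1 and 25 in nsp2. The causes of these shifts were not tested, beyond the stricter limits passing fewer genes.

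With each library left out in turn, the count ran between 5 and 16 for nsp1 against A17 at -P-N, 9 and 19 for nsp2 against A17, 24 and 48 for NSP1ox against EV, and 0 and 8 for the phosphate interaction. With a replicate of every A17 group left out, 128 to 153 genes passed the rule, 91 to 101 of them among the 125.

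Replicate numbers did not pair the samples. With a replicate block the phosphate interaction called 7 genes in place of 4, and every other count stayed within 1.5 times. The alternatives for A17 -P-N against +P+N were not run. Depth, at 16194286 counts or more per library, leaves members near 1 CPM with few reads.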
